A study of Mus musculus with 83 samples.

Results

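The endocannabinoid system of the frontal cortex is described here by 7 genes, chosen by name: the cannabinoid receptor gene Cnr1, the lipase genes Dagla and Daglb, and the enzyme genes Mgll, Abhd6, Faah and Napepld. They are 7 of 48795 genes in the deposited count table, and all 7 passed the filter on low counts in every comparison. Counts come from 83 libraries of neurons cut by laser from frozen sections of 14 µm of frontal cortex of male C57BL/6 mice, with 125 cells pooled for each library. Mice were young (2 months) or old (22 months), with no other treatment or allele named in the labels. Pyramidal cells (PYC) were picked after staining for Slc17a7. Interneurons were picked after staining for Pvalb (the parvalbumin type, PV), for Sst (the somatostatin type, SST) or for Vip (the type with vasoactive intestinal peptide, VIP). Each type had 12 old libraries, with 9 young libraries for PYC, SST and VIP and 8 for PV. A library is a pool of cells of 1 stained type, and the labels do not tie it to a mouse.

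Endocannabinoids are lipid messengers that mostly travel backwards across a synapse. A postsynaptic neuron makes them on demand, and they act on the receptor CB1, the product of Cnr1, on nearby axon terminals, where CB1 reduces transmitter release. In the cortex, CB1 is best known from the terminals of interneurons that express cholecystokinin, a class that overlaps in part with VIP interneurons. The main messenger in the brain, 2-arachidonoylglycerol, is made by diacylglycerol lipases (Dagla, Daglb) and broken down mainly by monoacylglycerol lipase (Mgll) and to a lesser degree by the hydrolase ABHD6 (Abhd6). Anandamide, the other messenger, can be made by the phospholipase NAPE-PLD (Napepld) and is broken down by fatty acid amide hydrolase (Faah).

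The stretches of 250 bases before the first annotated start are shown for Cnr1, Abhd6 and Faah, 3 members whose levels differed between neuron types in different ways (VIP, PV and PYC highest, in this order). They are from RefSeq (GRCm38.p6), 5′ to 3′ on the gene's strand, and 6 of the 7 members matched the table. Capitals mark matches, on either strand, to any of 5 short motifs that are spelled out after the sequences.
Cnr1, chr4:33924014-33924263, plus strand: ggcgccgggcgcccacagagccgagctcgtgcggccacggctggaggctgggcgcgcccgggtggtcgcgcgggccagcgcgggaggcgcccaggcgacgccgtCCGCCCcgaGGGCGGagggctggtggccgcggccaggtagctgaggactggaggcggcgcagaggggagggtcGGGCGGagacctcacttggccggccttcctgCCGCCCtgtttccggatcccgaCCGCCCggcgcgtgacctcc
Abhd6, chr14:8002638-8002887, plus strand: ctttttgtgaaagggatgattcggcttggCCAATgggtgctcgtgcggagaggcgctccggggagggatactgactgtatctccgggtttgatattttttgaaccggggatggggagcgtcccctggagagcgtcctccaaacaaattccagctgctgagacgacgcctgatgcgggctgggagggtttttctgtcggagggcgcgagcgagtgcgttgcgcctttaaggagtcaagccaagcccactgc
Faah, chr4:116017925-116018174, minus strand: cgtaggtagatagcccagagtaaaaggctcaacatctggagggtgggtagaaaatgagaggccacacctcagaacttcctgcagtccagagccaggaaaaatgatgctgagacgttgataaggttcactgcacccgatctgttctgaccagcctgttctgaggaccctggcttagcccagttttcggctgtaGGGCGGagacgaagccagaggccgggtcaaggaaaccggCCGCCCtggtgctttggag

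The Cnr1 stretch is 79.2% G and C, at percentile 98.6 of 32851 promoters of the same length, whose median is 52.4%. It holds 5 matches to the GC box, spelled GGGCGG, which is found in 32.7% of these promoters. The Abhd6 stretch is 58.4% G and C and holds 1 match to the CCAAT box (5 letters, as named), found in 33.8% of promoters. The Faah stretch is 55.6% G and C and holds 2 GC boxes. The E-box, spelled CACGTG, is found in 6.02% of promoters and in none of these 3. The same holds for the core of the cyclic AMP response element, spelled TGACG, found in 17.8% of promoters. The TATA box, searched as TATAAA and found in 12.4%, is also in none of the 3. Cnr1 and Abhd6 have further annotated starts, whose stretches are not shown and differ. For Cnr1, start 2 has 68.8% G and C, 1 E-box and 0 GC boxes. Its start 3 has 49.2% G and C and none of the motifs. For Abhd6, start 2 has 62.8% G and C, 1 GC box and 0 CCAAT boxes. These matches describe letters only, and the count data do not bear on the binding of any factor.

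Library totals ran from 1.46 to 27.2 M counts (M for mega), with a median of 6.99 M. In 6 libraries mitochondrially encoded genes took under 3% of counts (old PYC 10, young PYC 2, young SST 6, old VIP 11, young VIP 1 and young VIP 3). Some age values and the Cnr1 level in VIP pools are also given without them. Fold changes between types are given with them only, and whether any call changed is stated below. Levels are in CPM, which is relative to the library total. The stained genes had their highest mean in their own pools, which the picking of cells built in. Slc17a7 averaged 822 CPM in PYC, Pvalb 76.5 CPM in PV, Sst 812 CPM in SST and Vip 686 CPM in VIP pools. Slc17a7 also averaged 471 CPM in VIP, 348 CPM in SST and 257 CPM in PV pools. Its VIP range (252 to 754 CPM) overlapped that of PYC (445 to 1679 CPM). In the other pools Pvalb averaged 1.82 to 7.59 CPM, Sst 14.6 to 57.6 CPM and Vip 2.55 to 5.45 CPM. Genes used as markers of other cells had counts in every type. The sum of 10 pyramidal markers ran from 3379 to 6825 CPM in PYC, 1113 to 2612 CPM in PV, 1710 to 3069 CPM in SST and 2382 to 5388 CPM in VIP pools, and all 10 had a median of at least 1 CPM in each type. Most of the VIP sum was Camk2a, which averaged 2277 CPM in VIP and 2104 CPM in PYC pools, and Cux2 was also lower in PYC (61.5 CPM) than in the interneuron pools (148 to 197 CPM), while the other 8 had their highest mean in PYC. The sum of 7 astrocyte markers averaged 2372, 1636, 2035 and 2435 CPM in PYC, PV, SST and VIP pools. Most of it was Slc1a2 (1355 CPM in PV and 2105 CPM in PYC). Means over the types were 95.3 to 142 CPM for Slc1a3 and 84.7 to 130 CPM for Aldoc. They were 20.6 to 36.6 CPM for Gja1, 13.8 to 17.8 CPM for Aqp4, 2.68 to 16.1 CPM for Gfap and 4.47 to 15.7 CPM for Aldh1l1. The part of RNA of other cells in the levels below was not tested. In pools, fewer cells of a type and less RNA per cell cannot be told apart.

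Cnr1 (ENSMUSG00000044288; chromosome 4, 33924593 to 33948831, GRCm38) was the member that differed most between neuron types. VIP pools held 212 to 1225 CPM of Cnr1, with a median of 684 CPM. SST pools held 80.0 to 331 CPM (median 161), PYC pools 8.41 to 241 CPM (median 113) and PV pools 8.54 to 152 CPM (median 67.8). Every VIP pool was above every PV pool, 20 of 21 VIP pools were above every PYC pool, and 19 of 21 were above every SST pool. The pools that overlapped with other types were young VIP library 1 (212 CPM) and old VIP library 11 (243 CPM).

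The mean level of Cnr1 was 692 ± 221 CPM (SD, n = 21) in VIP, 157 ± 58.1 (SD, n = 21) in SST, 114 ± 55.7 (SD, n = 21) in PYC and 65.2 ± 40.2 (SD, n = 20) in PV pools, so the VIP mean was 10.6 times the PV mean. The 6 pairs of types were tested with edgeR's quasi-likelihood F-test in a fit of all 83 libraries, with Benjamini-Hochberg adjustment over all genes and pairs together and a threshold of 0.05. Cnr1 was 9.81-fold higher in VIP than in PV pools (log2 fold change, PV over VIP, -3.29 ± 0.28 SE; edgeR adjusted p = 3.63e-16). It was 5.69-fold higher in VIP than in PYC pools (PYC over VIP, -2.51 ± 0.26 SE; adjusted p = 1.66e-12). It was 4.36-fold higher in VIP than in SST pools (SST over VIP, -2.12 ± 0.25 SE; adjusted p = 3.70e-10). These 3 calls held under every alternative setting and with any 1 library left out.

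Below VIP, Cnr1 was also lowest in PV. It was 2.25-fold higher in SST than in PV pools (PV over SST, -1.17 ± 0.25 SE; edgeR adjusted p = 0.000467) and 1.72-fold higher in PYC than in PV pools (0.79 ± 0.25 SE; adjusted p = 0.0261). PYC and SST did not differ beyond their spread (PYC over SST, -0.38, with a 95% interval of -0.86 to 0.09; adjusted p = 0.389). The PYC and PV difference was lost without young PYC library 3 (adjusted p = 0.0578), with limma-voom (0.659) and with the F number of the library titles, which the labels do not explain, as a factor (0.0988). The PV and SST difference was lost with limma-voom (0.457), which gave Cnr1 weights from 0.533 to 1339 over the 83 libraries. The PV and SST difference was also lost with young libraries alone, and the PYC and PV difference with young or old libraries alone.

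**Figure D1:**
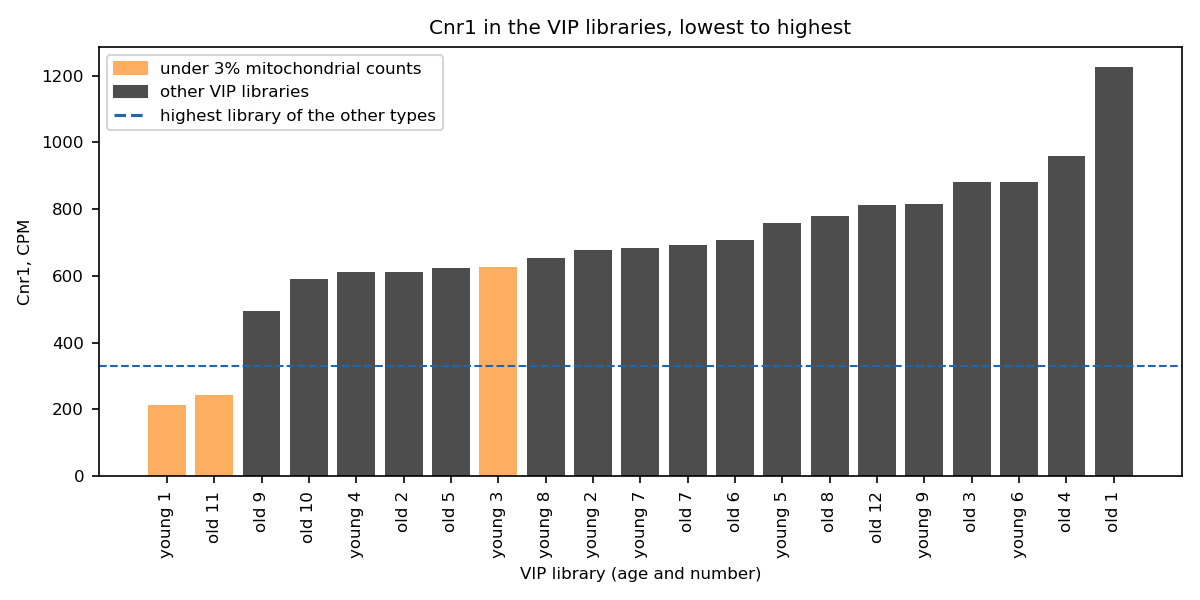
Each bar is the Cnr1 level, in CPM, of 1 of the 21 VIP libraries, ordered from lowest to highest, and the dashed line is the highest of the 62 libraries of the other types (331 CPM). The 2 bars under the line, at 212 and 243 CPM, and another at 628 CPM are the VIP libraries with under 3% mitochondrial counts, and the other 18 lie between 494 and 1225 CPM.

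Both VIP pools with overlapping Cnr1 values were among the 6 libraries with a low mitochondrial share. Young VIP library 1 had 0.890% mitochondrial counts and 1806 CPM of Vip, so its Vip level was above the VIP median of 527 CPM. Old VIP library 11 had 2.51% mitochondrial counts and 624.5 CPM of Vip. Young VIP library 3, with 0.873%, held 628 CPM of Cnr1 and 2216 CPM of Vip. In the 18 VIP libraries with at least 3%, Cnr1 averaged 748 ± 169 CPM (SD, n = 18), with a lowest value of 494 CPM. That is above the highest library of any other type (331 CPM). Sst was also high in 2 VIP pools, old VIP library 11 (331 CPM of Sst) and old VIP library 9. The latter held 439 CPM of Sst, the lowest Vip of the 21 (286 CPM) and the third lowest Cnr1 (494 CPM), with 9.23% mitochondrial counts. Without both, at a limit of 300 CPM of Sst chosen after the levels were seen, Cnr1 averaged 726 ± 199 CPM (SD, n = 19).

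Old and young VIP pools had similar medians of Cnr1, and their ranges overlapped. The 12 old VIP libraries ran from 243 to 1225 CPM (median 699) and the 9 young ones from 212 to 881 CPM (median 679). The log2 fold change, old over young, was 0.17 ± 0.20 (SE; edgeR p = 0.403, adjusted p = 0.9996), with a 95% interval of -0.23 to 0.57, and it changed sign with limma-voom (-0.14). It was 0.10 without the libraries of low mitochondrial share and ran from 0.05 to 0.26 with 1 VIP library left out. In the other types the old and young means were 109 and 121 CPM (PYC), 63.4 and 67.9 CPM (PV) and 159 and 155 CPM (SST), each closer together than their SDs of 38.8 to 71.6 CPM. Without the libraries of low mitochondrial share the old and young PYC means were 111 and 135 CPM, with SDs of 44.5 and 61.9 CPM.

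The VIP pools were checked for markers of cholecystokinin basket cells, a class known for high Cnr1. The sum of 6 such markers was 611 to 1339 CPM in VIP, 86.5 to 265 CPM in PYC, 82.2 to 343 CPM in SST and 2.72 to 132 CPM in PV pools. Most of the VIP sum was Adarb2 (792 CPM), which also marks VIP cells. Cck itself averaged 77.0 CPM in VIP and 125 CPM in PYC pools, and Col25a1 65.8 CPM in VIP and 117.5 CPM in SST pools. Tnfaip8l3 had its highest mean in VIP (12.4 CPM, median 10.8), against 1.13 to 7.41 CPM in the other types. Sncg was also highest there, with 4.66 CPM (median 0.373) against 0.264 to 1.35 CPM. Slc17a8 averaged 1.61 CPM in VIP pools and 1.95 to 4.06 CPM in the others, with a median of 0 CPM in each type. The part of such cells in the Cnr1 level was not tested.

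**Figure D2:**
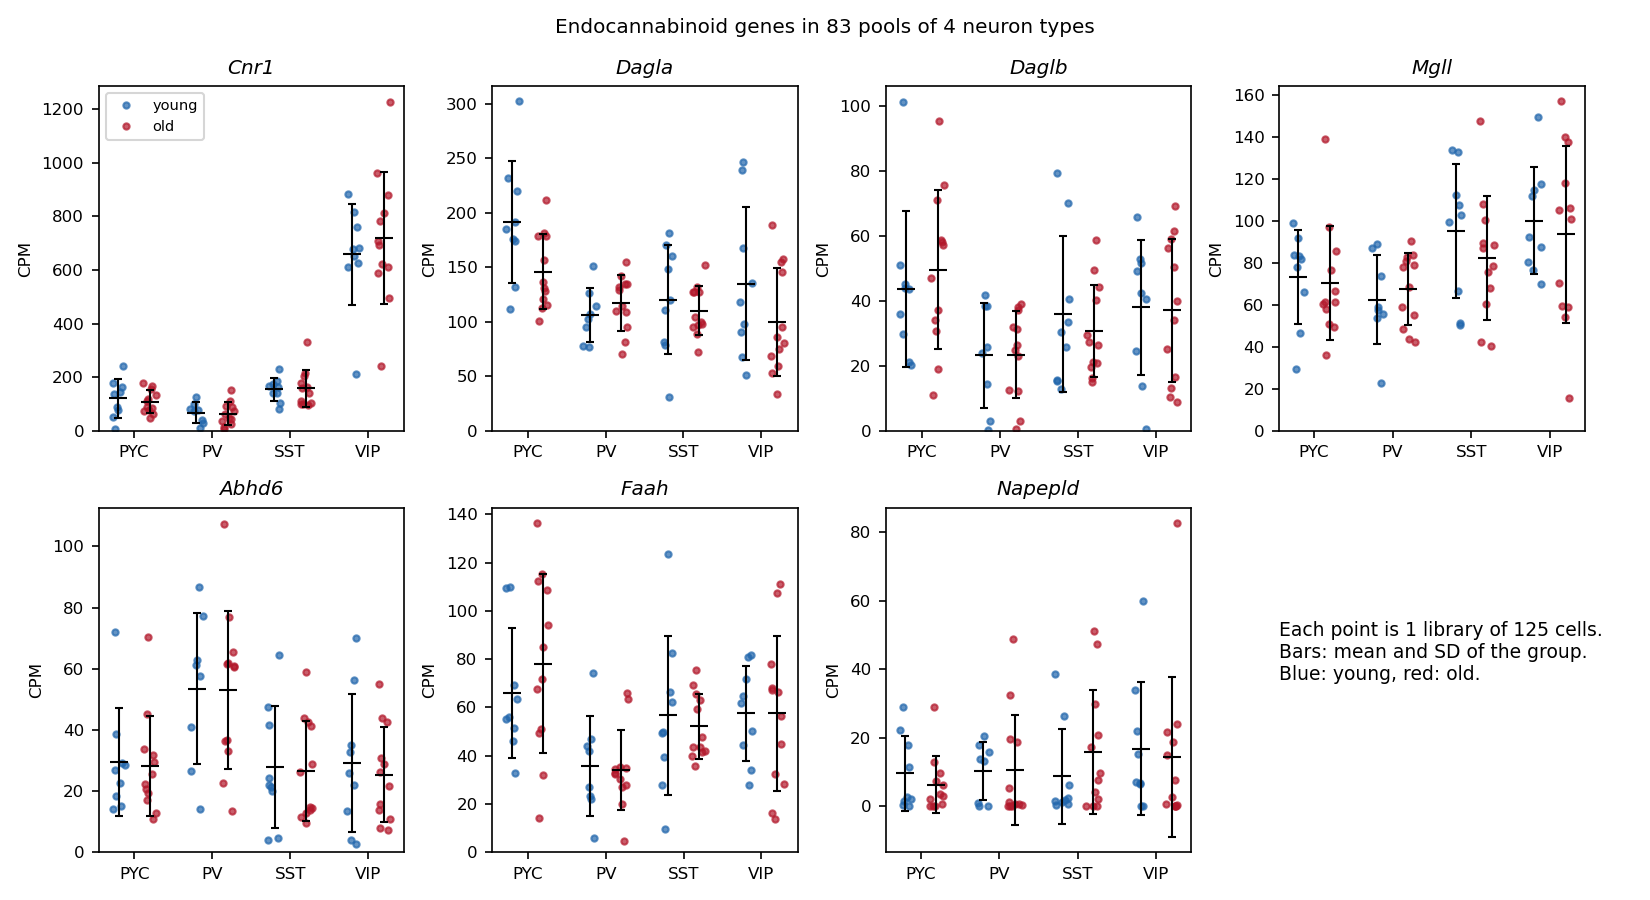
Each panel shows 1 gene and each point 1 library (CPM, linear axis), by neuron type, with young libraries in blue and old ones in red, and with the mean and SD of each group as bars. VIP libraries stand above the rest for Cnr1, PV libraries are highest on average for Abhd6, and young and old points overlap in every panel.

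Dagla (ENSMUSG00000035735; chromosome 19, 10245265 to 10304877), which encodes the lipase that makes most 2-arachidonoylglycerol in the brain, was highest in pyramidal cells. PYC pools held 101 to 303 CPM of Dagla (median 174), PV pools 70.6 to 155 CPM (median 112), SST pools 31.2 to 181 CPM (median 111) and VIP pools 34.0 to 246 CPM (median 95.1). The ranges overlapped, but 19 of 21 PYC pools were above the PV median, 20 above the SST median and all 21 above the VIP median. Dagla was 1.47-fold higher in PYC than in PV (log2 fold change 0.56 ± 0.17 SE; edgeR adjusted p = 0.0181), 1.53-fold higher than in SST (0.61 ± 0.17 SE; 0.00667) and 1.54-fold higher than in VIP pools (0.62 ± 0.17 SE; 0.00557).

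The 3 interneuron types did not differ beyond their spread in Dagla, with means of 113, 115 and 115 CPM in PV, SST and VIP pools. The 95% interval of the log2 difference was -0.28 to 0.39 for PV over SST, -0.27 to 0.40 for PV over VIP and -0.32 to 0.34 for SST over VIP. With the F number as a factor the PYC difference from PV (adjusted p = 0.0658) and from SST (0.103) missed the threshold, while that from VIP passed. With young or old libraries alone, no PYC difference in Dagla passed.

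Daglb (ENSMUSG00000039206; chromosome 5, 143464584 to 143505942), the second diacylglycerol lipase gene, also had its highest mean in PYC pools, with less certainty than Dagla. It held 10.9 to 101 CPM in PYC (median 44.1), 0.158 to 41.7 CPM in PV (median 25.4), 13.0 to 79.6 CPM in SST (median 27.3) and 0.529 to 69.3 CPM in VIP pools (median 40.6). No pair of types was called: the widest difference, PYC over PV, was 0.97 ± 0.36 (SE) on the log2 scale with an edgeR adjusted p of 0.0576. It passed with DESeq2 (0.0344), limma-voom (0.0194), no filter on low counts (0.0452) and the F number as a factor (0.0494). It also passed when only genes of at least median abundance were fitted and adjusted (0.0499). Over the 83 fits that each left out 1 library this p ran from 0.0397 to 0.117, and it passed in 13 of them. The Daglb counts carry a further limit, since 24.1% of its 9567 exon bases lie opposite exons of Rac1, and a strand setting for the counting was not found in the labels.

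Mgll (ENSMUSG00000033174; chromosome 6, 88724412 to 88828360), the main enzyme that ends 2-arachidonoylglycerol signalling, differed little between types. It held 29.5 to 139 CPM in PYC (median 66.6), 23.1 to 90.6 CPM in PV (median 63.9), 40.5 to 148 CPM in SST (median 88.9) and 15.7 to 157 CPM in VIP pools (median 101). All 4 ranges overlapped, and no pair passed. The widest difference, PV over VIP, was -0.47 ± 0.19 (SE) with an edgeR adjusted p of 0.101. That difference passed with RLE size factors (0.0481), with DESeq2 (0.0206) and without old VIP library 3 (0.0485). An antisense gene shares 3.29% of the exon bases of Mgll.

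Abhd6 (ENSMUSG00000025277; chromosome 14, 8002902 to 8056763), which encodes a hydrolase of postsynaptic membranes that also breaks down 2-arachidonoylglycerol, was the only member with its highest mean in PV pools. PV pools held 13.5 to 107 CPM of Abhd6 (median 60.6), PYC pools 10.8 to 71.9 CPM (median 25.5), SST pools 4.16 to 64.6 CPM (median 22.2) and VIP pools 2.69 to 70.1 CPM (median 26.0). Of the 20 PV pools, 17 were above the PYC median, 18 above the SST median and 17 above the VIP median. Abhd6 was 2.11-fold higher in PV than in SST pools (log2 fold change 1.07 ± 0.33 SE; edgeR adjusted p = 0.0177), and as much higher than in VIP pools (1.08 ± 0.33 SE; 0.0176).

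Against PYC the Abhd6 difference was of like size but missed the threshold (PYC over PV, -0.90 ± 0.33 SE; edgeR adjusted p = 0.0581). It passed with DESeq2 (0.0223), with limma-voom (0.0152) and when only genes of at least median abundance were fitted and adjusted (0.0427). It also passed in 7 of the fits that left out 1 library, the lowest p being 0.0244. PYC, SST and VIP means were 28.8, 27.1 and 27.0 CPM. The SST and VIP levels of Abhd6 differed by 0.00094 on the log2 scale, with a 95% interval of -0.63 to 0.63. The PV over VIP call was lost with the F number as a factor (0.0522). With young or old libraries alone, neither PV over VIP nor PV over SST passed for Abhd6.

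Faah (ENSMUSG00000034171; chromosome 4, 115967145 to 116017926), which breaks down anandamide, was lowest in PV pools. They held 4.63 to 74.4 CPM (median 32.7), against 14.2 to 136 CPM in PYC (median 67.7), 9.65 to 124 CPM in SST (median 49.5) and 13.9 to 111 CPM in VIP pools (median 61.7). The ranges overlapped, with 19 of 21 PYC pools above the PV median. Faah was 2.00-fold higher in PYC than in PV pools (log2 fold change 1.001 ± 0.26 SE; edgeR adjusted p = 0.00321). That call was lost with young libraries alone. The differences of PV from SST (-0.54 ± 0.25 SE; adjusted p = 0.176) and from VIP (-0.60 ± 0.26 SE; 0.120) did not pass.

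Napepld (ENSMUSG00000044968; chromosome 5, 21662901 to 21701396), a source of anandamide, was sparse. It had no count in 4 PYC, 4 PV, 3 SST and 5 VIP libraries. Means were 7.69, 10.5, 12.8 and 15.5 CPM in PYC, PV, SST and VIP pools, with SDs of 9.45, 13.3, 16.5 and 21.3 CPM, each larger than its mean. The highest library held 82.7 CPM (an old VIP pool). No pair of types passed, and the 95% intervals of the log2 differences were wide, such as -2.50 to 0.62 for PYC over VIP. In each pair the interval for Napepld included a 2-fold difference in at least 1 direction, so a difference of that size was not excluded.

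**Figure D3:**
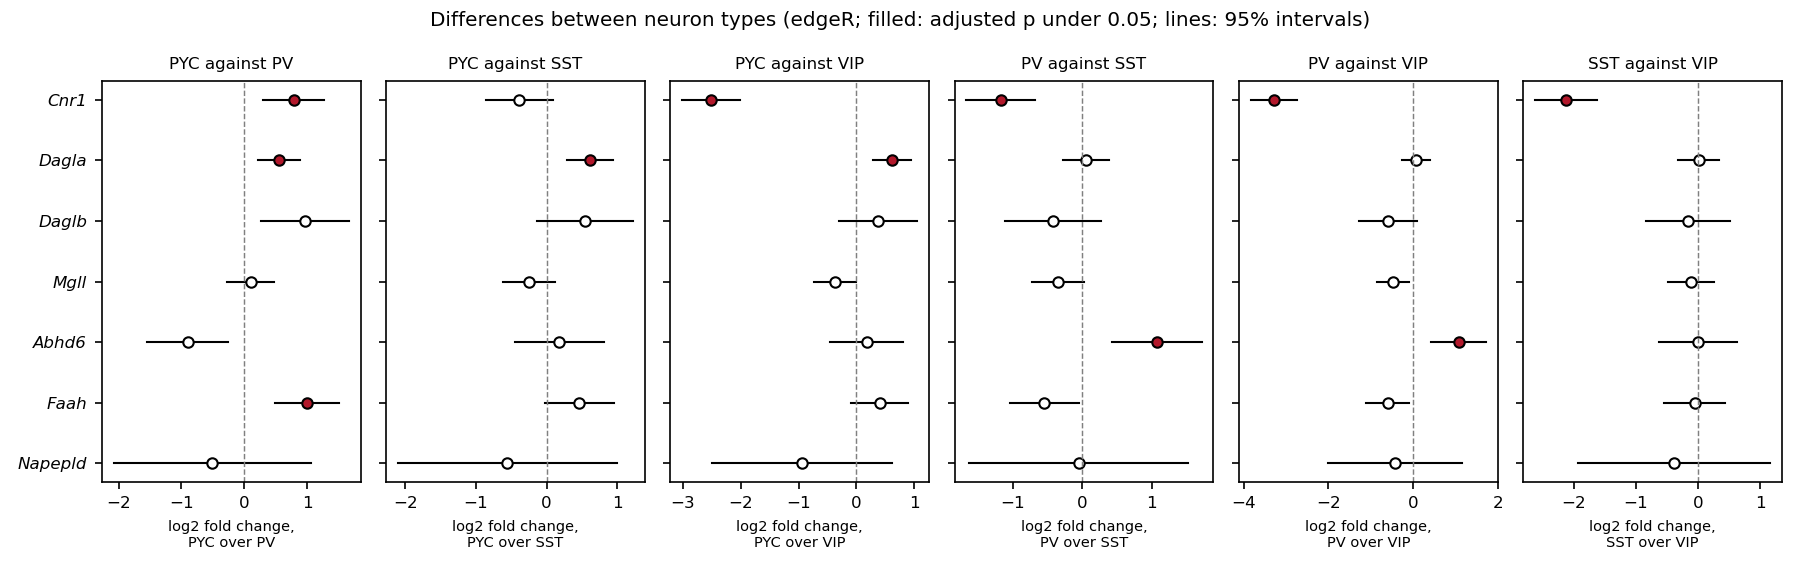
Each panel is 1 pair of neuron types, with the log2 fold change of each gene on the horizontal axis, its 95% interval as a line and a filled point where the edgeR adjusted p was under 0.05. Cnr1 is filled in 5 of the 6 panels, Dagla in the 3 panels of PYC, Abhd6 in the 2 panels of PV against SST and VIP, and Faah in 1.

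Counted over the 7 genes, PYC and PV differed in 3 (Cnr1, Dagla and Faah, all higher in PYC), where 15.5% of all 19208 genes tested were called and 8.63% were called higher in PYC. PV and VIP differed in 2 (Cnr1 and Abhd6; 15.5% of all genes), PYC and VIP in 2 (Cnr1 and Dagla; 10.2%), PV and SST in 2 (Cnr1 and Abhd6; 11.2%), PYC and SST in 1 (Dagla; 11.1%), and SST and VIP in 1 (Cnr1; 8.17%). With 7 genes, 1 gene is already 14.3%, so the pairs with 1 call lie near the background. The shares over all genes were not matched for abundance, in which the members lay at percentiles 53.0 to 97.2. The only pair without overlap of libraries was Cnr1 in VIP against PV, which 0.443% of all genes reached. The median log2 fold change of the 7 genes was 0.56 for PYC over PV, against 0.04 over all genes tested. Without young PYC library 3 the PYC and PV count was 2, and it was 5 without old PV library 10, old PV library 11 or young PYC library 4, as Daglb and Abhd6 then passed. The 6 pairs share libraries, so their counts are not independent. With young or old libraries alone, fewer members passed in 5 of the 6 pairs and 1 passed as before between SST and VIP, and the directions stayed the same for every tested pair with an unadjusted p under 0.05.

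Levels of different genes were compared only per kilobase of exon. Per kilobase, Dagla led in PYC pools with 28.8 CPM per kb, 32.4% of the sum of the 7 genes. In PV pools Abhd6 had the highest mean, 22.5 CPM per kb (30.1%), followed by Dagla with 19.7 CPM per kb (26.3%). Dagla was above Abhd6 in some PV libraries and below it in others. In SST pools Cnr1 led with 24.4 CPM per kb (28.1%), and in VIP pools Cnr1 took 62.1% of the sum with 107 CPM per kb. Of the synthetic lipases, Dagla was above Daglb per kilobase in all 83 libraries. Of the degrading enzymes, Mgll was above Abhd6 in 14 of 21 PYC, 15 of 21 SST and 14 of 21 VIP libraries, and in 5 of 20 PV libraries. The mean log2 ratio of Mgll to Abhd6 was 0.27 in PYC, -0.69 in PV, 0.78 in SST and 0.93 in VIP pools, with SDs of 0.93, 0.81, 1.13 and 1.44. These values use the union of all annotated exons as the length, and isoform use was not measured.

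**Figure D4:**
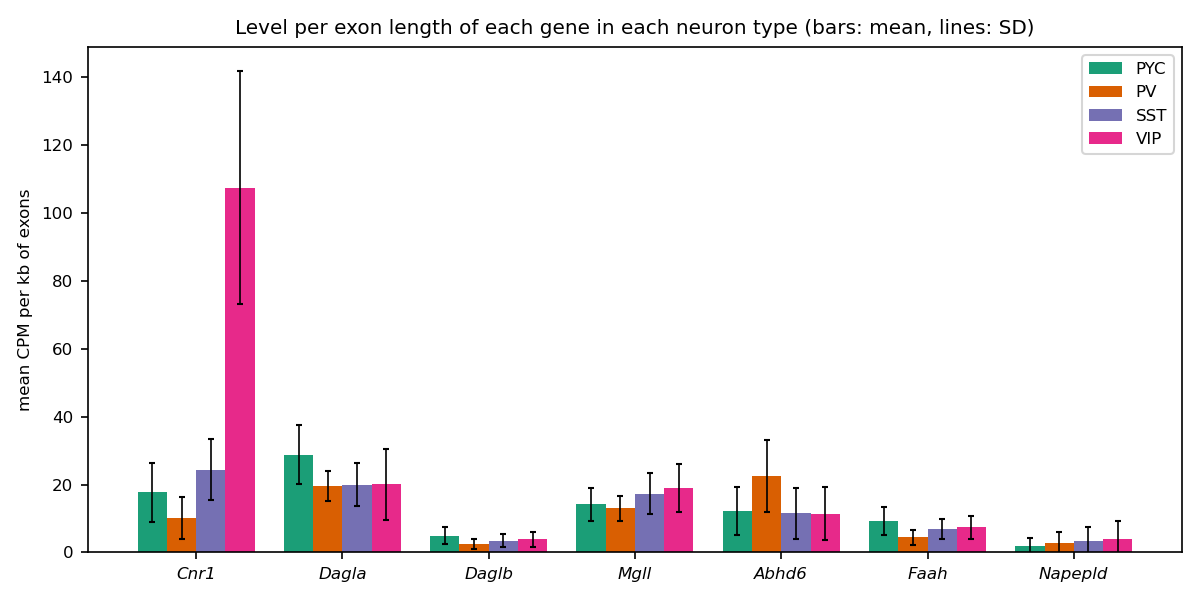
Bars give the mean level of each gene per kilobase of exons (CPM per kb), by neuron type over both ages, with SD over libraries as lines (21 libraries for PYC, SST and VIP, 20 for PV). Cnr1 in VIP pools, at 107 CPM per kb, stands above the other bars, which reach 28.8 CPM per kb at most.

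Spread between libraries of 1 type was far larger than counting error. The coefficient of variation of Cnr1 was 31.9% in VIP and 61.6% in PV pools, where counting alone gives 1.86% and 6.62%. It was 22.3% to 52.4% for Dagla, 28.2% to 36.7% for Mgll and 46.5% to 68.2% for Abhd6 across the 4 types. In each type Mgll thus had a narrower spread than Abhd6 or Daglb (50.9% to 60.5%). The counting figures assume independent molecules and are a lower limit.

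The second question of the design was whether old and young mice differ within a neuron type. No member was called in any type with edgeR (0 of 7 in PYC, PV, SST and VIP), where 0% of the 12508, 12564, 12805 and 12337 genes tested were called. At an unadjusted p under 0.05 the members also gave 0 of 7 in each type, against 2.91%, 2.32%, 2.87% and 2.98% of all genes in PYC, PV, SST and VIP. The interaction of age and type was called for 0 of 7 members, against 3.13% of all genes, and for 0 of 7 under every alternative run.

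Dagla in pyramidal cells came closest to an age difference. Its 9 young PYC libraries ran from 112 to 303 CPM (median 185) and its 12 old ones from 101 to 212 CPM (median 134). The groups overlapped, and the highest value, 303 CPM, was young PYC library 2, with the lowest mitochondrial share of all libraries (0.215%). The log2 fold change, old over young, was -0.38 ± 0.20 (SE; edgeR p = 0.0638, adjusted p = 0.9998), with a 95% interval of -0.77 to 0.01. An exact permutation test of log2(CPM + 1) gave p = 0.0371 (2-sided, 12 against 9 libraries), and 0.996 after adjustment over the 28 tests of 7 members in 4 types. In VIP pools the Dagla means were 99.9 CPM in old and 135 CPM in young libraries, with SDs of 49.2 and 70.3 CPM. The 2 highest young values (239 and 246 CPM) were young VIP libraries 1 and 3, of low mitochondrial share. Without the libraries of low share the means were 94.7 and 104 CPM, and the log2 fold change moved from -0.36 to -0.10 (edgeR adjusted p = 0.9996 and 0.99996). The PYC value moved from -0.38 to -0.28 without them and to -0.055 with the F number as a factor.

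None of the enzymes of breakdown had an age difference that passed. Mgll averaged 70.4 and 73.5 CPM in old and young PYC, 67.8 and 62.5 CPM in PV, 82.4 and 95.4 CPM in SST, and 93.8 and 100.2 CPM in VIP pools. Abhd6 averaged 53.1 and 53.4 CPM in old and young PV pools, where it was highest, and Faah 78.2 and 66.0 CPM in PYC pools, where it was highest. In the type where each had the smallest p, the log2 fold change, old over young, was -0.22 for Mgll (SST), -0.21 for Abhd6 (VIP), 0.28 for Faah (PYC), 0.19 for Daglb (PYC) and 0.91 for Napepld (SST). Their 95% intervals all held 0, from -0.71 to 0.27 for Mgll at the narrowest to -1.12 to 2.94 for Napepld at the widest. The sign of the Abhd6 and Daglb values changed with the F number as a factor (0.071 and -0.026), and that of Napepld with limma-voom (-0.25). With 1 library left out the values ran from -0.32 to -0.14 for Mgll, 0.17 to 0.39 for Faah, 0.09 to 0.43 for Daglb and 0.57 to 1.72 for Napepld. For Abhd6 they ran from -0.37 to 0.04, with a changed sign in 2 of 21 fits. Without the libraries of low mitochondrial share the Abhd6 value was -0.64 and the Daglb value 0.05. The smallest adjusted p over the 28 exact permutation tests was 0.996.

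Of 60 exact permutation tests of depth, mitochondrial share, genes with a count and marker sums, 5 had p under 0.05 and 0 passed adjustment. The mitochondrial share in SST pools (11.9% in old and 9.29% in young libraries; exact permutation p = 0.00137, adjusted p = 0.0821) and the sum of VIP markers in VIP pools (1917 CPM in old and 2492 CPM in young; p = 0.0325, adjusted p = 0.491) were among the 5. The others were the mean library total in SST pools (6.25 M in old and 10.6 M in young; exact permutation p = 0.0238) and, in PV pools, the sums of endothelial markers (30.7 and 60.1 CPM; exact permutation p = 0.0408) and of oligodendrocyte markers (500.1 and 645 CPM; exact permutation p = 0.0409), each with an adjusted p of 0.491. Their part in the age values of the members was not tested.

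**Figure D5:**
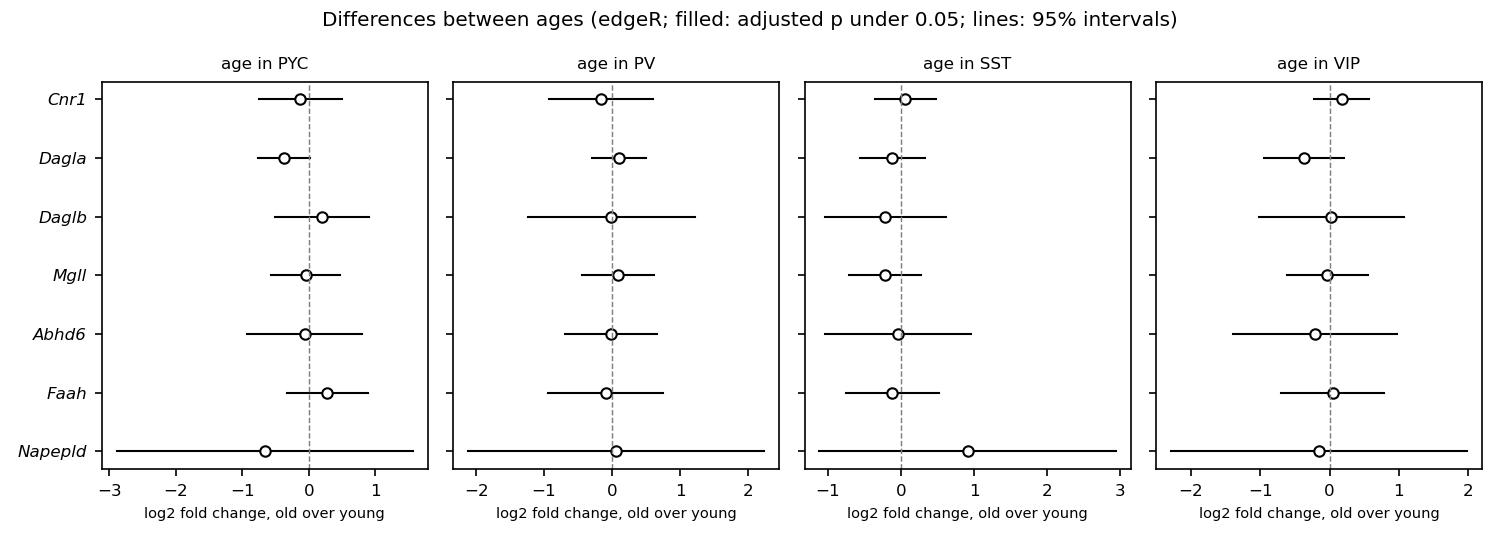
Each panel is 1 neuron type, with the log2 fold change of each gene (old over young) on the horizontal axis and its 95% interval as a line. No point is filled, since no edgeR adjusted p was under 0.05, and every interval crosses 0, with Dagla in PYC reaching from -0.77 to 0.01.

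The 6 libraries with a low mitochondrial share were set beside the other libraries of their group. Of the 42 member values in them, 27 lay within the range of the rest, 11 above and 4 below. With few libraries in a group, 1 more library can fall outside their range by rank alone. The same counts over all genes were not made. Dagla was above the range in 4 of the 6 (303 CPM in young PYC 2, 239 and 246 CPM in young VIP 1 and 3, 181 CPM in young SST 6). Cnr1 was below the range in 3 of the 6, with 8.41 CPM in young PYC 2, where the other young PYC pools held at least 51.1 CPM. Without these 6 libraries no call of a member listed above was lost or gained.

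Other genes of the pathway were described from a list of 33: further receptors and their partners, other enzymes, the receptors and G proteins that drive synthesis, and the effectors of CB1. Of these, 31 could be tested between types. PYC and PV differed in 9 of 31 (7 higher in PYC and 2 higher in PV), or 29%, where 15.5% of all genes were called. PV and VIP differed in 12 (6 in each direction), or 38.7% against 15.5%, and PYC and VIP in 8 (6 higher in PYC), or 25.8% against 10.2%. The count was 6 for PYC and SST (3 in each direction; 19.4% against 11.1%), 6 for PV and SST (1 higher in PV; 19.4% against 11.2%) and 5 for SST and VIP (3 higher in SST; 16.1% against 8.17%). The shares over all genes were not matched for the abundance of the pathway genes. Between ages, 0 of the 28 or 29 tested genes passed in any type. Cnr2, the gene of the second cannabinoid receptor, and Trpv1, a channel that anandamide can open, were too sparse to test. Cnr2 had no count in 20, 19, 19 and 19 of the PYC, PV, SST and VIP libraries.

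Of the pathway genes named by the rule, 2 encode muscarinic receptors, which can start endocannabinoid synthesis. Chrm3 was low in PV pools, with 2.35 to 53.2 CPM (median 8.02), against 12.2 to 106 CPM in PYC, 36.0 to 168 CPM in SST and 39.1 to 153 CPM in VIP pools. PV pools overlapped with each other type. The log2 fold change was 2.09 ± 0.27 (SE) for PYC over PV, -2.83 ± 0.28 for PV over SST and -2.52 ± 0.27 for PV over VIP (edgeR adjusted p = 3.92e-10, 1.90e-15 and 3.18e-13). Chrm1, the related receptor of cortical excitatory neurons, averaged 175 CPM in PYC, 118 CPM in VIP, 66.0 CPM in SST and 62.4 CPM in PV pools. It was higher in VIP than in SST pools (log2 fold change, SST over VIP, -0.86 ± 0.16 SE; edgeR adjusted p = 3.34e-05). Gpr55, a lysophospholipid receptor that some cannabinoids also bind, was called higher in PYC than in PV (5.49 ± 1.56 SE; adjusted p = 0.00919) and VIP pools (4.13 ± 1.39 SE; 0.0347). Gpr55 had no count in 13 of 21 PYC, 18 of 20 PV and 17 of 21 VIP libraries, so these folds rest on few libraries. The highest was 1 old PYC library, with 262 counts (36.1 CPM).

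The genes whose levels followed each member most closely over all 83 libraries were found among 8959 genes of at least median abundance, as a description. For Cnr1 they were Htr3a (Pearson r = 0.77), Grpr (0.76), Npy2r (0.73), Kit (0.73) and Nbea (0.72), of which Htr3a encodes a serotonin receptor subunit and Grpr and Npy2r encode peptide receptors. Within the 8 groups of type and age the same r fell to between 0.01 and 0.24, so the likeness of these genes to Cnr1 is between types. For Dagla the nearest gene was Clstn1 (0.70, and 0.57 within groups), a synaptic adhesion gene, followed by Pip5k1c (0.61) and Adgrl1 (0.59). For Daglb it was Rgs6 (0.59), then C77080 (0.53) and Exoc5 (0.52).

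For the other members the nearest genes had r from 0.36 to 0.59. They were Pxn (0.51), Plxdc1 (0.47) and Rasd2 (0.40) for Mgll, Akap10 (0.59), Atcay (0.56) and Il1rapl1 (0.53) for Abhd6, and Cpne9 (0.55), Mef2d (0.55) and Tagln3 (0.52) for Faah. For Napepld they were Hacd3 (0.37), Kif5b (0.36) and Mybbp1a (0.36). Among the members themselves the highest r over the 83 libraries was 0.39 (Daglb and Faah) and the lowest -0.33 (Cnr1 and Dagla), and within groups these were 0.28 and -0.28. All values share library depth and composition.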

How the data were processed

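The deposited table holds raw read counts per Ensembl gene for 83 libraries, prepared with a stranded kit for very small RNA amounts, per the labels' protocols. Per the submitters' processing notes, the authors used HISAT2 and the build GRCm38. How reads were counted, with which annotation and whether by strand, was not given in the sources used here. Coordinates and exon lengths are from GENCODE M21. Of 48795 genes, 446 had no symbol.

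Tests were edgeR 4.0.16 quasi-likelihood F-tests in R 4.3.3 (robust, TMM, filterByExpr with a minimum count of 10, 2-sided, Benjamini-Hochberg adjustment): age within a type in a fit of that type, and type pairs and the interaction in a fit of 8 groups. Intervals are 1.96 SE to each side. Correlations used log2 CPM with a prior count of 2. Exact permutation tests used log2(CPM + 1) for members and plain values for library measures. The tests were also run on simulated data, with the spread of each gene estimated over all libraries without groups. The outcome is not given here and is not used as support.

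Libraries were grouped by the labels, and their numbers follow sample order. No label says whether pools of different types share mice, and type p-values treat them as independent. Nothing states that libraries are separate mice, so the spread may be partly technical. Members, lists and tests were chosen with earlier results of these data known. Named pathway genes were those that passed between types with a log2 fold change of at least 2 in size, or otherwise the 2 with the smallest p in a pair. 1 gene that this rule names is not reported here. Neighbours passed over Gm, Rik, pseudogene and small RNA names. Alternatives were RLE factors, 2 other filters, DESeq2 1.42.0, limma-voom (limma 3.58.1), covariates, subsets of libraries and leaving out each library with the dispersion trend kept.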

Additional observations from a re-analysis of the deposited data

Results flagged for a closer look

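3 values stood apart from the rest of their group by Dixon's gap test at the 95% level. In all, 28 groups of 8 or 9 young libraries were examined (7 genes in 4 types), and chance gives about 1 such value in 20 groups. Cnr1 was 212 CPM in young VIP library 1, the lowest of 9, and the next lowest was 610.4 CPM. That library had 0.890% mitochondrial counts. Its part in the low value was not tested. Abhd6 was 71.9 CPM in young PYC library 4, the highest of 9. Daglb was 101 CPM in young PYC library 8, the highest of 9.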

How the results depend on the processing

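No paired analysis was possible because library numbers follow sample order and no label links libraries to mice. The number of members called between PYC and PV (3) was 5 with DESeq2, 4 with limma-voom and 4 with no filter on low counts. It was 5 when only genes of at least median abundance were fitted and adjusted. With the F number as a factor it was 2, and with 1 library left out 2 to 5. With young libraries alone it was 0 and with old alone 1. Between PYC and SST (1) it was 0 with the F number as a factor and 0 with young or old libraries alone. Between PYC and VIP (2) it was 1 with young and 1 with old libraries alone. Between PV and SST (2) it was 1 with limma-voom, 0 with young and 1 with old libraries alone, and between PV and VIP (2) it was 1 with the F number, 1 with young and 1 with old libraries alone, and 2 to 3 with 1 library left out. Between SST and VIP it was 1 and for age 0 under every setting run. The libraries of 1 age are fewer, and other causes were not tested. For type pairs, the shares of all genes called with DESeq2, limma-voom, median abundance, the F number or 1 library left out are not shown here. Whether the counts of members moved with those shares was not tested. For age, Abhd6 in VIP was 0.071 and Daglb in PYC -0.026 with the F number, and Cnr1 in VIP was -0.14 and Napepld in SST -0.25 with limma-voom, all opposite in sign to the values given and none past the threshold. Over all genes, no filter on low counts gave 4168 to 5658 calls between types where the filter gave 1569 to 2970, 5734 to 7117 for age (0 with the filter) and 7680 for the interaction (601). The interaction gave 8 calls with a filter on CPM, 8 with limma-voom, 1 with DESeq2 and 315 with the F number. The filter on CPM gave 959 for SST and VIP (1569). With young libraries alone type pairs gave 338 to 1024 calls, and with old alone 387 to 1303. DESeq2 gave 2 calls for age in PV and 1 in SST, limma-voom 2 in PV and 2 in PYC, and the fit of all groups 13 in PYC and 1 in PV, none of them a member. The coefficient of variation of Napepld was 123% to 138% across types, where counting alone gives 44.9% to 55.3%.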
